A study of Mus musculus with 15 samples.

Results

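Kcng1 is a single gene, chosen by its measured group levels, which stepped upward through every odour-exposed group of these data. It was 1 of 57010 gene rows in the count table and 1 of 19229 that passed the filter on low counts. It matched 1 Ensembl identifier, ENSMUSG00000074575. Because group levels chose the gene, its differences between groups are given as a description and carry no test. The data are RNA-seq of the messenger RNA held by ribosomes with phosphorylated S6 (pS6), pulled down from the olfactory epithelium of male, wild-type C57BL/6J mice aged 8 weeks. Mice were kept without odour for 4 h and then exposed for 90 min, with 3 mice in each of 5 groups. Control mice had empty filter papers. A+D mice had 10 µL each of acetophenone and decanal on a shared paper (20 µL in total), and A&D mice had the same odorants on separate papers about 1 mm apart. O+C and O&C mice had octanal and cis-3-hexenol, on a shared paper or on separate papers in the same way. Every group carried the same batch label. Where 4 values follow each other below, they are for these odour groups in the order of their mean Kcng1 level: acetophenone and decanal on a shared and then on separate papers, then octanal and cis-3-hexenol likewise. The tissue was whole epithelium with no cell sorting, so the libraries also hold RNA of cells other than neurons.

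Kcng1 encodes Kv6.1, one of the electrically silent voltage-gated potassium channel subunits. These subunits form no working channel alone: they assemble with the pore-forming subunits of the Kv2 family, such as that encoded by Kcnb2, and change how the Kv2 channel opens and inactivates. Kv2 channels carry delayed rectifier current, which shapes repetitive firing in neurons. S6 is a ribosomal protein that becomes phosphorylated when olfactory sensory neurons are active, so that pulldown with a pS6 antibody enriches messenger RNA from neurons that an odour has stimulated.

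Libraries held 22704193 to 25287077 assigned counts. Markers of mature olfactory sensory neurons were abundant in all 15 libraries. In 5 libraries (Control 1, the second of A+D, the first of A&D, and both O&C 1 and O&C 3) Obp2a, a secreted odorant-binding protein of nasal glands, stood at or below 2.13 CPM, against 111 to 525 CPM in the other 10. CPM is a gene's count relative to the library's total, the usual counts-per-million unit, scaled between libraries by the TMM method. Th and Gad1, which mark interneurons of the olfactory bulb, stood at 17.7 and 22.2 CPM in O&C 1, and Th was at 2.77 to 7.21 CPM in the 3 A+D libraries, 3.05 CPM in A&D 2 and at most 0.933 CPM in the rest. Without the 5 libraries low in Obp2a, which leaves O&C with 1 library and the other groups with 2 or 3, the log2 fold changes of Kcng1 over Control were 1.37, 2.00, 2.79 and 2.92 in the odour groups, close to those with all libraries below. Th in all 3 A+D libraries exceeded its highest Control value of 0.206 CPM. Bulb RNA and odour therefore cannot be told apart in A+D minus Control, and ranks within a group do not bear on that. Within groups, the Kcng1 levels of libraries with bulb marker RNA were as follows. O&C 1 had the lowest level of its group, at 61.0 CPM, and so did A+D 2, at 20.8 CPM with Gad1 at 9.69 CPM. A+D 1, with the most Th of its group at 7.21 CPM, was in the middle at 22.8 CPM. A&D 2, with the most Th of its group, had the highest level there, at 43.0 CPM. The part of bulb RNA in the Kcng1 differences was not tested.

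Kcng1 was low without added odour and higher in each odour group. The 3 Control mice gave 11.6, 12 and 6.73 CPM (288, 300 and 163 counts). With acetophenone and decanal on a shared paper, Kcng1 stood at 22.8, 20.8 and 26.1 CPM. On separate papers the same odorants gave 35.4, 43.0 and 32.8 CPM. All 6 of these libraries lay above the highest Control value, and the 3 A&D values lay above the 3 A+D values.

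The octanal pair gave the highest levels. Kcng1 stood at 88.7, 52.5 and 56.2 CPM in the O+C mice (2061, 1307 and 1446 counts). In the O&C mice it stood at 61.0, 71.6 and 86.8 CPM (1408, 1748 and 1952 counts). Every library of the octanal pair exceeded every library of the acetophenone pair, while the ranges of O+C and O&C overlapped.

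The mean was 10.1 ± 2.93 CPM in Control (SD, n = 3 in each group), and 23.2 ± 2.65, 37.1 ± 5.32, 65.8 ± 19.9 and 73.1 ± 13.0 CPM in the odour groups in order. Each of the first 3 steps separated groups with no shared range, by ratios of 2.3, 1.59 and 1.77. The last step, from O+C to O&C, was a ratio of 1.11 and did not exceed the spread between mice. The overlap depended on O+C 1, a library singled out after its value was seen. Without it the highest O+C library was at 56.2 CPM, below the lowest O&C library at 61.0 CPM. Leaving out other libraries went the other way: the log2 difference of O&C from O+C was 0.02 without O&C 3 and 0.01 without O+C 2. Among tested genes, the Control mean of Kcng1 stood at the percentile 46.4 and the O&C mean at the percentile 83.9.

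**Figure D1:**
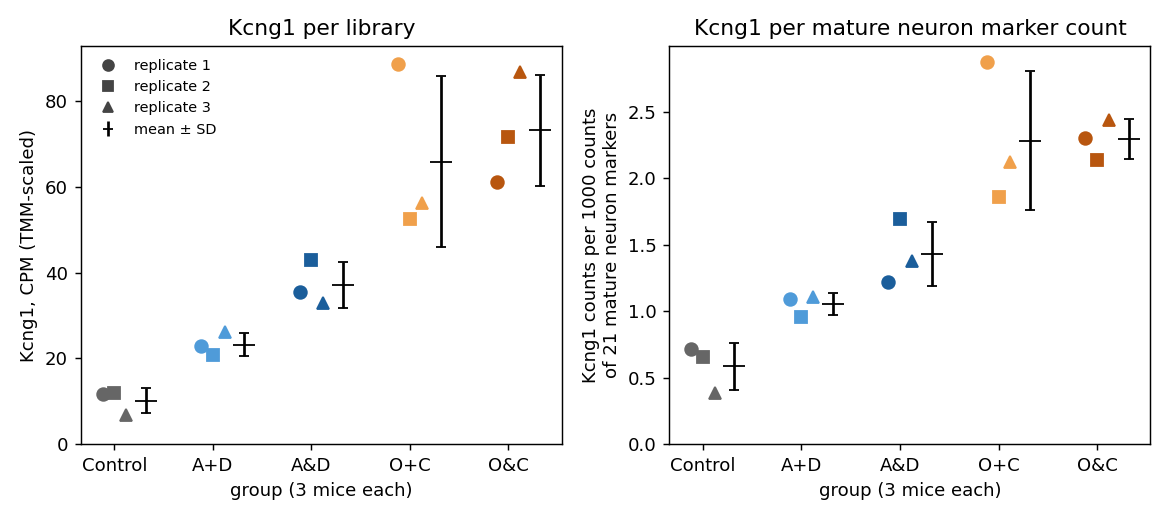
Kcng1 in the 15 libraries, by group on the horizontal axis. The left panel gives TMM-scaled CPM and the right panel Kcng1 counts per 1000 counts of 21 mature neuron markers; marker shapes give the replicate number and bars the mean ± SD of 3 mice. Group means climb from 10.1 to 73.1 CPM on the left and from 0.586 to 2.29 on the right, where O+C and O&C are level.

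The spread between mice of 1 group was larger than counting alone would give. Coefficients of variation were 29% in Control and 11.4%, 14.3%, 30.3% and 17.7% in the odour groups, against 2.42% to 6.32% from Poisson counting error at these depths. Control 3 and O+C 1 lay farthest from their groups, the former low and the latter high. Kcng1 counts were whole numbers in all 15 libraries. No gene of RefSeq's GRCm38.p6 annotation overlaps Kcng1.

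In the edgeR model over all libraries, the log2 fold change of Kcng1 from Control was 1.20 ± 0.23 (SE, 95% interval 0.72 to 1.68) for A+D and 1.87 ± 0.23 (1.39 to 2.36) for A&D. It was 2.7 ± 0.23 (2.21 to 3.19) for O+C and 2.85 ± 0.23 (2.36 to 3.35) for O&C. Intervals for Kcng1, here and below, do not allow for its choice by group levels and are no test. These 4 differences share the Control mice, so Control 3, the lowest library, enters each of them. Leaving out any 1 library kept them within 0.98 to 1.34, 1.65 to 2.01, 2.43 to 2.84 and 2.63 to 2.99. By log2 fold change among 17808 tested genes with a symbol other than intact olfactory receptor (Olfr) genes, Kcng1 ranked 191, 36, 20 and 35 from the top in the odour groups.

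Delivery separated the Kcng1 levels of the acetophenone pair, while those of the octanal pair overlapped. Separate papers against a shared paper gave a log2 difference of 0.67 ± 0.22 (0.21 to 1.14) for acetophenone and decanal. For octanal and cis-3-hexenol the difference was 0.15 ± 0.21 (-0.30 to 0.61). With 1 library left out it ran from 0.01 (without O+C 2) to 0.43 (without O+C 1). Scaled on mature neuron markers, these differences were 0.44 ± 0.20 and 0.01 ± 0.20. The gap between these delivery differences was -0.52 ± 0.31, given as a description with a 95% interval of -1.16 to 0.13; in that contrast 0.0104% of tested genes were called, all lower. Averaged over deliveries, the octanal pair stood above the acetophenone pair by 1.24 ± 0.15 (0.91 to 1.57) on the log2 scale.

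Mature neuron markers were also higher in the odour groups. In a pS6 pulldown from whole tissue, more cells of a type, more RNA per cell and a larger pulled-down share cannot be told apart. The 21 markers summed to 16300 to 18100 CPM in Control and to 21000 to 23500, 23800 to 29100, 26500 to 30900 and 26600 to 35600 CPM in the odour groups. Against Control, 0, 5, 19 and 20 of the 21 rose by edgeR's quasi-likelihood test at an adjusted p of 0.05, where 0.296%, 1%, 5.74% and 9.33% of all tested genes rose. None fell. The counts ran over 0 to 4, 1 to 7, 11 to 16 and 19 to 20 with 1 library left out: 4 in A+D without A+D 1, and 1 in A&D and 11 in O+C without Control 1. Over the same comparisons 0.026%, 0.0208%, 2.35% and 5.41% of tested genes fell. No list of markers of another cell type had group sums whose means climbed through all 5 groups: sustentacular cell markers summed to 6480 to 7850 CPM in Control and 4380 to 5740 in O&C, immature neuron markers to 4490 to 4920 and 4590 to 5080, and red blood cell markers to 18100 to 28800 and 10200 to 14400.

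Set against the neuron markers, the first 3 steps of Kcng1 were smaller and still without overlap. Per 1000 counts of the 21 markers, Kcng1 gave 0.715, 0.659 and 0.383 counts in the Control libraries. It gave 1.09, 0.96 and 1.11 in A+D and 1.22, 1.69 and 1.38 in A&D, ranges that do not overlap each other or Control. In O+C the values were 2.87, 1.86 and 2.12, and in O&C 2.30, 2.14 and 2.44. These group means were 1.8, 2.44, 3.9 and 3.92 times the Control mean, so that O+C and O&C no longer differed in mean. Per count of Omp, the olfactory marker protein, the folds were 1.8, 2.32, 3.56 and 3.55, and per summed count of intact Olfr genes 1.96, 2.52, 4.48 and 4.4. Per 1000 counts of Omp, the highest A+D and the lowest A&D library met at 4.22, so those groups did not separate on Omp alone.

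Refitting with library sizes set by the neuron markers gave Kcng1 log2 fold changes of 0.85, 1.29, 1.96 and 1.97, each with an SE of 0.21. This scaling shifts the median of all tested genes to -0.33, -0.59, -0.73 and -0.90, against 0.02, 0, -0.01 and -0.04 with TMM. Kcng1 kept its sign under it. The part of the neuron content in the Kcng1 differences was not tested beyond these values.

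Kcnb2, whose pore-forming product can pair with Kv6.1, showed no such steps and had 54 to 115 counts per library. Its mean was 2.67 ± 0.559 CPM in Control and 3.53 ± 0.338, 2.76 ± 0.533, 4.12 ± 0.649 and 3.47 ± 0.572 CPM in the odour groups. No difference from Control passed (log2 0.40, 0.05, 0.63 and 0.38, edgeR adjusted p 0.444, 0.964, 0.109 and 0.293), and the A&D value changes sign with library totals only (-0.02). Per count of Kcnb2, Kcng1 was 1.65, 3.36, 3.94 and 5.41 times its Control ratio in the 4 odour groups. The A+D ratios overlapped Control (5350 to 7530 Kcng1 counts per 1000 of Kcnb2, against 2060 to 5560), and the ratios of the other odour groups did not.

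Among the other silent subunits, Kcns3 (Kv9.3) alone passed the test under TMM scaling. Scaled on the neuron markers it did not pass, while Kcng2 was lower in A&D (-2.36, adjusted p = 0.00691, 1 to 15 counts) and Kcnf1 in O+C (-0.73, adjusted p = 0.0332), where the median of all tested genes was at -0.59 and -0.73. Kcns3 stood at 22.3, 24.4 and 22.8 CPM in Control, 31.2, 16.2 and 30.8 in A+D, and 28.3, 30.5 and 25.5 in A&D. In O+C it stood at 40.6, 33.8 and 36.8 CPM, and in O&C at 36.5, 43.8 and 46.4. The octanal pair lay wholly above Control. The A+D value of 16.2 came from A+D 2 and lay below every Control library.

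Kcns3 rose by 0.68 ± 0.18 on the log2 scale in O+C (adjusted p = 0.0309) and by 0.87 ± 0.18 in O&C (adjusted p = 0.00447), and was at 0.17 in A+D (adjusted p = 0.688) and 0.28 in A&D (adjusted p = 0.601). Scaled on the neuron markers, the same differences were -0.18, -0.31, -0.04 and -0.01, with adjusted p from 0.168 to 0.966. The O+C call was lost without any of the 3 Control libraries or either of O+C 1 and O+C 3 (adjusted p up to 0.142), with library totals only (0.61, adjusted p = 0.0516) and with the replicate number as a block (0.67, adjusted p = 0.0547). The O&C call held without any 1 library (adjusted p at most 0.028). Pooled over deliveries, Kcns3 was higher with the octanal pair than with the acetophenone pair by 0.55 ± 0.13 (adjusted p = 0.00967), a comparison in which 9.03% of tested genes were higher and 6.74% lower (15.8% in either direction).

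Of the 6 Kv2 and silent subunit genes reported beside Kcng1, 0 passed with either delivery of the acetophenone pair and 1 with each delivery of the octanal pair. The background in either direction was 0.322%, 1.02%, 8.09% and 14.7% of tested genes. DESeq2 gave the same counts, and the numbers at an unadjusted p under 0.05 were 0, 1 (Kcng2), 2 (Kcnb2 and Kcns3) and 1 (Kcns3). The others were at low counts or level. Kcnf1 (Kv5.1) had log2 fold changes of 0.34, 0.18, -0.03 and 0.24, and Kcns1 (Kv9.1) of 0.14, 0.23, -0.01 and 0.26. Kcng2 (Kv6.2, 1 to 15 counts) had -0.71, -1.77, -0.21 and -0.43, and Kcns2 (Kv9.2, 0 to 27 counts) had 1.58, 0.55, -0.02 and 1.15. The highest Kcns2 values, 1.20 CPM in A+D 2 and 1.08 CPM in O&C 1, were in the libraries with most Gad1; the part of bulb RNA in them was not tested. Kcng3, Kcng4, Kcnv1 and Kcnv2 did not pass the count filter, with at most 4, 11, 7 and 2 counts in any library.

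**Figure D2:**
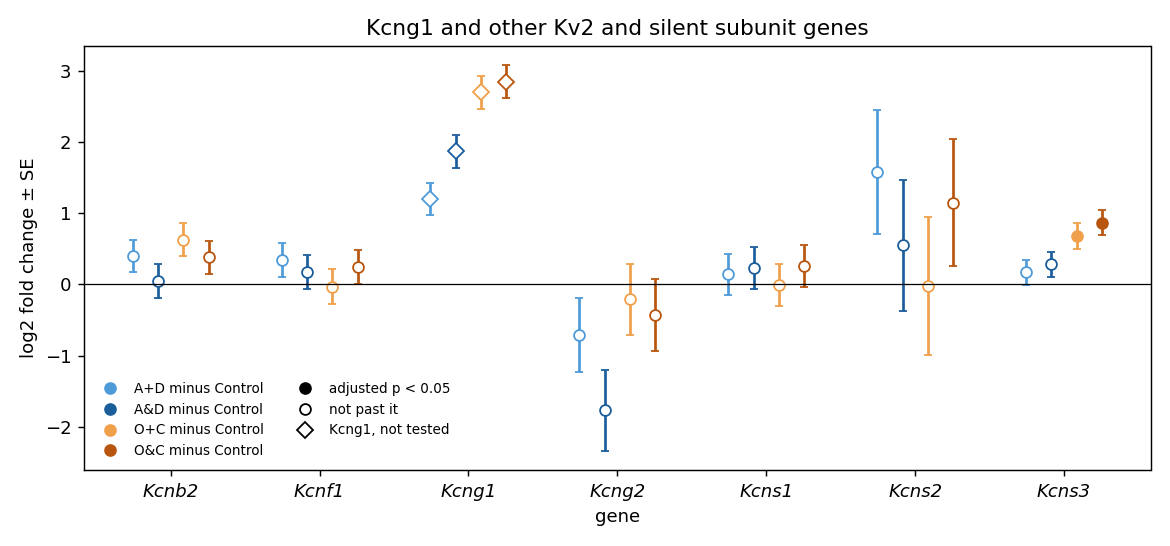
Log2 fold change from Control (vertical axis, ± SE from the edgeR model over 15 libraries) for Kcng1 and 6 other Kv2 and silent subunit genes that passed the count filter, by odour group in colour. Filled circles passed an adjusted p of 0.05, open circles did not, and diamonds are Kcng1, which was not tested. Kcng1 runs from 1.20 to 2.85, and the only filled points are Kcns3 at 0.68 and 0.87.

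Proteins that accompany or anchor Kv2 channels moved little. Of 14 tested genes of 18 listed, 0, 0, 1 and 3 rose, beside 0.296%, 1%, 5.74% and 9.33% of all tested genes, and 0, 0, 1 and 1 fell, beside 0.026%, 0.0208%, 2.35% and 5.41%. Counts this small in 14 genes lie near those shares and are no result about the list. It had median log2 fold changes of 0, 0.05, 0.14 and 0.13. Without the libraries low in Obp2a the counts in the octanal pair were 1 and 1 higher and 1 and 0 lower. Amigo1, an adhesion protein that is an auxiliary subunit of Kv2, rose by 0.55 ± 0.16 in O+C (adjusted p = 0.0413) and 0.68 ± 0.16 in O&C (adjusted p = 0.00884). Snap25, a vesicle fusion protein that binds Kv2 channels, rose by 0.73 ± 0.18 in O&C (adjusted p = 0.0105), and Stac by 0.63 ± 0.16 (adjusted p = 0.0131). Kcne3, a small accessory subunit, fell by 1.06 ± 0.27 in O+C (adjusted p = 0.0232) and by 0.92 ± 0.27 in O&C (adjusted p = 0.029). Each of these calls was lost without at least 1 library: Amigo1 in O+C without any Control library or either of O+C 1 and O+C 3 (adjusted p up to 0.181) and in O&C without O&C 3 (0.0601), Snap25 on omitting Control 1, Control 3 or O&C 3 (up to 0.0582), and Stac without Control 3 or O&C 3 (up to 0.0676). The Kcne3 calls were lost without Control 1 or Control 3, O+C 2 or O+C 3 (up to 0.105), and O&C 1 or O&C 3 (up to 0.172). Scaled on the neuron markers, Amigo1 was at -0.16 and -0.19 and Snap25 at -0.14 in the same comparisons. Kcne1 had 0 counts in every library.

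Other voltage-gated potassium channel genes rose more often than fell. Of 30 tested genes of 37 listed, 0, 0, 6 and 10 rose, beside 0.296%, 1%, 5.74% and 9.33% of all tested genes, and 0 fell, beside 0.026%, 0.0208%, 2.35% and 5.41%, with medians of 0.27, 0.18, 0.49 and 0.57. With 1 library left out the O+C count ran from 2 (without O+C 1) to 5 and the O&C count from 7 to 10, and without the libraries low in Obp2a they were 6 and 4. Without A+D 1 the A+D count was 3. Kcnh3, an ether-a-go-go family channel, rose by 1.00 ± 0.13 in O+C (adjusted p = 1.68e-04) and 1.1 ± 0.13 in O&C (adjusted p = 3.25e-05). Kcna5 (Kv1.5) rose by 0.70 ± 0.13 (adjusted p = 0.00306) and 0.88 ± 0.13 (adjusted p = 2.55e-04). Both held without any 1 library. Scaled on the neuron markers, Kcnh3 was at 0.27 and 0.24 and Kcna5 at -0.02 and 0, none past the threshold, and the list's medians were -0.09, -0.41, -0.23 and -0.29.

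Kcnh6, another ether-a-go-go family gene, rose by 0.91 in O&C (adjusted p = 0.00912), a call lost without O&C 3 (adjusted p = 0.0619). Dpp6, an auxiliary subunit of Kv4 channels, had 3 to 54 counts. Its O&C value of 2.68 ± 0.82 (adjusted p = 0.0361) was lost on omitting any Control library or O&C 1 (adjusted p up to 0.423), and stood at 0.32 without the libraries low in Obp2a, O&C 1 with its high Th among them. The group SD of Dpp6 in O&C, 1.18 CPM, was larger than its mean of 0.982 CPM.

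Few inward rectifier, two-pore or calcium-activated potassium channel genes passed. Of 28 tested genes of 40 listed, 0, 0, 3 and 3 rose, beside 0.296%, 1%, 5.74% and 9.33% of all tested genes, and 0, 0, 1 and 4 fell, beside 0.026%, 0.0208%, 2.35% and 5.41%. The rises and the O+C fall lie near those shares. The list had medians of -0.02, -0.08, -0.16 and -0.23. The 4 that fell in O&C became 0 without Control 1 or without the libraries low in Obp2a, and the rises in O+C and O&C became 1 without O+C 1 and O&C 3 in turn. Kcnn2, a small-conductance calcium-activated channel, rose from 14.8 ± 0.709 CPM in Control to 28.6 ± 1.70 in O+C (log2 0.95 ± 0.14, adjusted p = 5.24e-04) and 35.4 ± 5.86 in O&C (1.26 ± 0.14, adjusted p = 1.81e-05), without loss on leaving out any 1 library. Scaled on the neuron markers it was at 0.23 and 0.38 (adjusted p 0.226 and 0.051). Kcnj8, the pore subunit of a vascular ATP-sensitive channel, fell by 1.61 ± 0.39 in O+C (adjusted p = 0.0178) and by 1.5 ± 0.39 in O&C (adjusted p = 0.0159), calls lost with Control 1 left out, the former also on leaving out O+C 1 or O+C 3 and the latter O&C 2 or O&C 3 (adjusted p up to 0.0867). Kcnj8 had 9 to 65 counts.

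Most genes of the cascade that turns odorant binding into current rose with the octanal pair under TMM scaling. Of 22 genes for transduction and excitability, all tested, 0, 1, 14 and 15 rose, beside 0.296%, 1%, 5.74% and 9.33% of all tested genes, and 0 fell, with medians of 0.34, 0.36, 0.75 and 0.82. With 1 library left out the O+C count ran from 9 (without Control 1 or O+C 1) to 11 and the O&C count from 12 to 14, and without the libraries low in Obp2a they were 15 and 11. Without A+D 1 the A+D count was 4, and the 1 A&D call was lost on omitting any Control library or either of A&D 1 and A&D 2. Adcy3, the adenylyl cyclase of olfactory cilia, rose by 0.94 ± 0.16 in O+C (adjusted p = 0.00174) and 1.19 ± 0.16 in O&C (adjusted p = 1.14e-04). Ric8b, a partner of the olfactory G protein, rose by 0.81 (adjusted p = 0.00262) and 1.02 (adjusted p = 2.04e-04). Neither gene lost its calls without any 1 library. Several genes of this list are also among the 21 neuron markers, so scaling on those markers holds the list near 0 by construction and decides nothing about it. Under that scaling the list's medians were -0.01, -0.24, 0.03 and -0.07, with no gene higher. In A&D and in O&C 3 were lower, beside 10320 and 14518 of all 19229 tested genes.

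Part of the genes listed as linked to neuronal activity rose with the octanal pair, and fewer with the acetophenone pair on separate papers. The counts use no expected direction for any gene. Of 19 listed and tested, 0, 5, 11 and 11 rose, beside 0.296%, 1%, 5.74% and 9.33% of all tested genes, and 0 fell, with medians of 0.41, 0.52, 1.36 and 0.98. The last 3 counts were 4, 10 and 7 without the libraries low in Obp2a, and ran from 4 to 5, 8 to 11 and 8 to 10 with 1 library left out; without A+D 1 the first was 3. With the neuron marker scaling 1, 4, 7 and 8 were higher, beside 66, 124, 128 and 170 of all 19229 tested genes. Under it 1, 3, 3 and 6 were lower, beside 719, 10320, 12507 and 14518 of all tested genes. Earlier results of these data were known when this list was drawn up, so its direction is no independent evidence.

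Pcdh10, an activity-regulated protocadherin, had log2 fold changes of 1.75 (adjusted p = 0.0807), 2.35 (adjusted p = 0.00431), 2.72 (adjusted p = 7.26e-04) and 2.76 (adjusted p = 3.61e-04), each with an SE of 0.37. Without the libraries low in Obp2a it was at 2.15 in A&D (adjusted p = 0.32) and 2.95 in O&C (adjusted p = 0.0588). Nr4a1, an immediate early nuclear receptor, followed another order: 0.01 (adjusted p = 0.99) and 1.1 (adjusted p = 2.83e-04) with the acetophenone pair, then 2.7 (adjusted p = 1.52e-08) and 2.30 (adjusted p = 5.92e-08) with the octanal pair. In A+D, Nr4a1 was level with Control at 37.6 ± 3.82 against 37.5 ± 6.25 CPM, where every Kcng1 library lay above Control. Fosb, an AP-1 subunit, rose by 2.60 ± 0.55 in O+C (adjusted p = 0.0116) and 2.37 ± 0.55 in O&C (adjusted p = 0.0111); the O+C call was lost on omitting Control 2 or Control 3 (adjusted p up to 0.0573) and the O&C call without Control 2 (0.0529). Npas4, a neuronal activity factor with 1 to 40 counts, rose by 3.37 ± 0.84 in O&C (adjusted p = 0.0121), a call lost without Control 1 or Control 2 (up to 0.0617).

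Within groups, Kcng1 was compared with the summed RNA of the activity-linked genes, a sum in which Kirrel2 and Lrrc3b weigh most and which did not follow Kcng1 past the correction once Lrrc3b was left out. The choice of Kcng1 used group levels, so deviations of each library from its own group mean are independent of that choice. The activity list was drawn up with earlier results of these data known, so that side of the comparison is not independent of the data. Control 3 was at -0.53 for Kcng1 and -0.16 for the summed activity-linked genes, on the log2 scale. O+C 1 was at 0.47 and 0.16, O&C 3 at 0.26 and 0.23, and O&C 1 at -0.25 and -0.20. Control 1, at 0.25 and 0, was high for Kcng1 only.

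Over the 15 libraries Pearson's r of these deviations was 0.869 (exact permutation within groups, two-sided, 7776 arrangements, p = 1.29e-04, adjusted p = 5.14e-04 over 4 measures) and Spearman's rho 0.854 (exact permutation p = 3.86e-04, adjusted p = 0.00154). Without the 2 libraries farthest from the median of the activity sum, O&C 3 and O&C 1, r was 0.875, and r ran from 0.85 to 0.908 when any 1 library was left out. The sum was weighted to few genes: Kirrel2, an activity-dependent adhesion molecule of axon sorting, made up 31.3% of it and Lrrc3b 26.2%. Lrrc3b is also the gene most like Kcng1 over these libraries. Without it r was 0.673 (exact permutation p = 0.0378, adjusted p = 0.151), which does not pass the correction.

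By gene, the within-group relation was uneven. Sema7a, a semaphorin of axon sorting, had a deviation r of 0.899, Lrrc3b 0.87, Pcdh10 0.707, Nr4a2 0.692 and Kirrel2 0.667. The immediate early genes Egr1, Fos, Junb and Arc had -0.145, -0.217, -0.161 and -0.126, and Npas4 -0.657. Egr4, Fosb, Kirrel3 and Efna5 were also below 0, and no expected direction was used for any gene. These values for single genes are descriptions over 15 libraries without a test.

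The other 3 sums did not follow Kcng1 past the correction. For the mature neuron markers r was 0.442 (exact permutation p = 0.12, adjusted p = 0.241) and rho 0.475 (exact permutation p = 0.119, adjusted p = 0.158), with r = 0.302 without the 2 outermost libraries. For intact Olfr genes r was 0.363 (exact permutation p = 0.198, adjusted p = 0.264) and rho 0.468 (exact permutation p = 0.0914, adjusted p = 0.158), and r fell to 0.213 without the 2 outermost. For Bowman gland markers r was -0.0141 (exact permutation p = 0.956, adjusted p = 0.956) and rho 0.0214 (exact permutation p = 0.939, adjusted p = 0.939), and -0.077 was the r without the 2 outermost. Whether the relation to the activity sum exceeds that to the neuron sum was not tested.

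**Figure D3:**
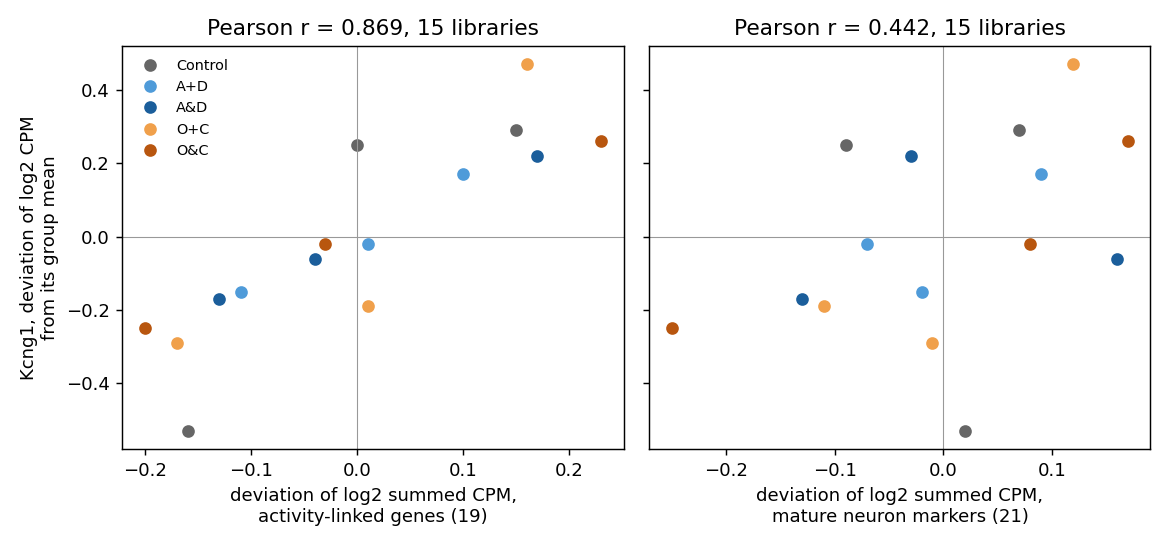
Deviation of Kcng1 from its group mean (vertical axis, log2 CPM) against the deviation of the summed CPM (horizontal axis, log2) of 19 activity-linked genes on the left and 21 mature neuron markers on the right. Each point is 1 of 15 libraries, coloured by group. Pearson's r is 0.869 on the left, or 0.673 without Lrrc3b in the sum, and 0.442 on the right; the difference between the panels was not tested.

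Likeness to Kcng1 over all 15 libraries was taken as Pearson's r of log2 CPM, among 17807 other tested genes whose symbol does not begin with Olfr. The highest were Lrrc3b (0.984), Heg1 (0.981), Chga (0.979), Ccdc184 (0.976), Dusp14 (0.973), Carns1 (0.97), 5033430I15Rik (0.968), Dmtn (0.968), Sh3glb2 (0.968) and Olfm1 (0.967). These correlations are descriptions: all genes share the same libraries and the same group steps. The median r over those genes was -0.0522, and 229 genes had an r of at least 0.9. Ranked by Spearman's rho instead, 3 of the 10 stayed among the first 10. Their deviation r within groups ran from 0.66 (Sh3glb2) to 0.87 (Lrrc3b), values that the choice by r over the same libraries favours.

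All 10 had smaller fold changes than Kcng1 in each odour group. Lrrc3b, a leucine-rich repeat membrane protein, averaged 123 ± 24.1 CPM in Control and 236 ± 45.8, 399 ± 72.8, 528 ± 168 and 673 ± 112 CPM in the odour groups. Its log2 fold changes were 0.94 ± 0.22 (adjusted p = 0.118), 1.70 ± 0.23 (adjusted p = 4.75e-04), 2.10 ± 0.23 (adjusted p = 5.72e-05) and 2.45 ± 0.23 (adjusted p = 8.72e-06). Heg1, a membrane protein with EGF-like domains, stood at 19.8 ± 1.95 CPM in Control and 37.2 ± 3.36, 51.9 ± 7.14, 68.3 ± 4.54 and 78.0 ± 15.2 CPM in the odour groups. Heg1 passed in all 4 groups, at 0.91 (adjusted p = 0.00269), 1.39 (adjusted p = 8.25e-06), 1.79 (adjusted p = 6.65e-07) and 1.98 (adjusted p = 1.27e-07), each with an SE of 0.14. With only the 2 groups fitted, its A+D value was 0.89 and did not pass (adjusted p = 0.0515).

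Chga, which encodes chromogranin A of dense-core vesicles, went from 193 ± 16.9 CPM in Control to 467 ± 66.0 in O&C (log2 1.28 ± 0.15, adjusted p = 2.66e-05). Dusp14, a dual-specificity phosphatase, went from 222 ± 11.9 to 560 ± 45.1 CPM (1.33 ± 0.14, adjusted p = 1.28e-05). Olfm1, a secreted olfactomedin, went from 395 ± 35.8 to 1080 ± 175 CPM (1.45 ± 0.16, adjusted p = 1.78e-05). Ccdc184, Carns1 (carnosine synthase), 5033430I15Rik, Dmtn (an actin-binding protein) and Sh3glb2 had 0.88, 0.98, 1.04, 0.67 and 0.65 in O&C, all past the test. Of the 10, Heg1 alone passed in A+D. The A&D calls of Ccdc184, Carns1, 5033430I15Rik, Sh3glb2 and Olfm1 (0.48, 0.53, 0.60, 0.45 and 0.73) were lost on leaving out any Control library or either of A&D 1 and A&D 2, with adjusted p up to 0.195. Without the libraries low in Obp2a, which leaves 2 A&D libraries, none of the 10 but Heg1 passed in A&D: Lrrc3b was at 1.69 (adjusted p = 0.235), Chga at 0.74 (0.106) and Dusp14 at 0.89 (0.129).

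Scaled on the neuron markers, the O&C differences were 1.57 for Lrrc3b (adjusted p = 2.14e-06), 1.09 for Heg1 (adjusted p = 6.73e-06), 0.58 for Olfm1 (adjusted p = 0.00167), 0.46 for Dusp14 (adjusted p = 0.00625) and 0.40 for Chga (adjusted p = 0.0132), against 1.97 for Kcng1. The other 5 did not pass there, and Dmtn and Sh3glb2 turned to -0.21. Counts of Lrrc3b, Heg1, Carns1 and 5033430I15Rik were whole numbers in 0 libraries, so their levels hold fractional estimates.

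**Figure D4:**
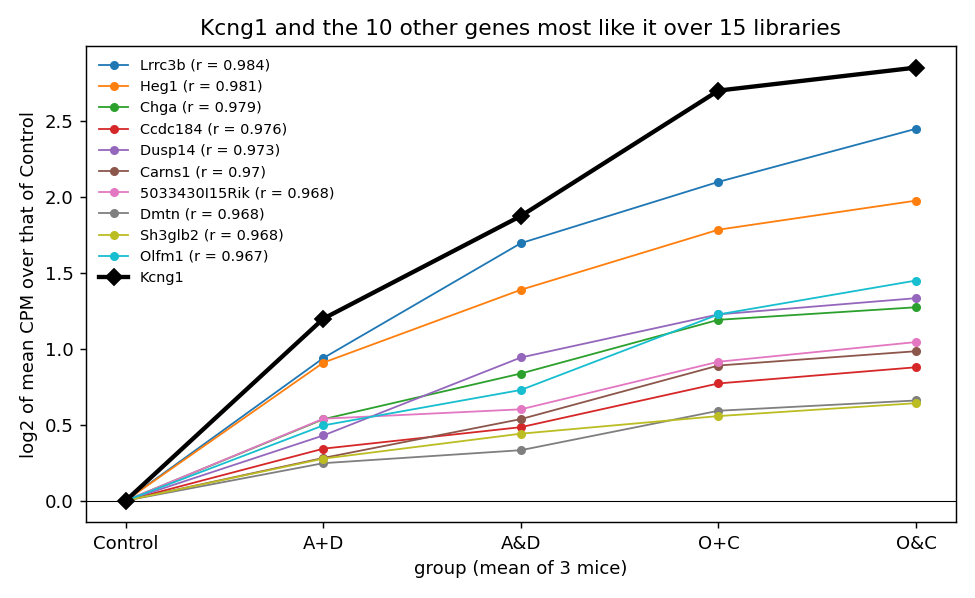
Log2 ratio of each group's mean CPM (3 mice) to the Control mean, for Kcng1 (black) and the 10 genes most like it, with r over 15 libraries in the legend. Groups are on the horizontal axis. Every line climbs from A+D to O&C, Kcng1 to 2.85, Lrrc3b to 2.45 and Sh3glb2 to 0.65.

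At the other end, low values of r were those of Pax6 (-0.921), a transcription factor of progenitors, sustentacular and gland cells, and Trp53 (-0.918), which encodes p53. Trp53 fell by 0.41 in O&C (adjusted p = 0.00969), a call lost without O&C 3 (adjusted p = 0.0708). Pax6 fell by 0.51 (adjusted p = 0.00625) and held without any 1 library. Without the libraries low in Obp2a neither passed in O&C, with Pax6 at -0.51 (adjusted p = 0.149) and Trp53 at -0.39 (adjusted p = 0.144).

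Of 866 tested intact Olfr genes, 35 had an r of at least 0.8 with Kcng1, beside 825 of the 17807 genes outside the Olfr family. The Olfr count lies near that share and is no result about receptors. Highest among them were Olfr455 (0.956), Olfr332 (0.954) and Olfr1349 (0.953). Olfr455 stood at 25.3 ± 2.10 CPM in Control and 57.8 ± 11.8, 79.6 ± 3.94, 126 ± 8.20 and 137 ± 28.0 CPM in the odour groups, and passed in all 4 groups with adjusted p from 5.11e-08 to 3.50e-04. Its deviation r was 0.101, so its likeness to Kcng1 lay in the group steps. Olfr332 rose by 3.25 in A&D (adjusted p = 1.06e-04), 3.78 in O+C (adjusted p = 3.18e-05) and 4.16 in O&C (adjusted p = 8.75e-06), and was at 1.20 in A+D (adjusted p = 0.208); the A&D value was 3.14 without the libraries low in Obp2a (adjusted p = 0.0943). Olfr1349 rose in all 4, by 1.20, 2.23, 2.20 and 2.64; its A+D call (adjusted p = 0.0108) was lost on omitting Control 1, Control 3 or either of A+D 2 and A+D 3, where adjusted p reached 0.0713.

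In the gene order of RefSeq's GRCm38.p6 assembly, the protein-coding neighbours of Kcng1 are Mocs3, Dpm1 and Adnp on one side and Nfatc2, Atp9a and Sall4 on the other. Nfatc2, a calcium-regulated transcription factor, had log2 fold changes of 0.47 (adjusted p = 0.343), 0.65 (adjusted p = 0.194), 1.12 (adjusted p = 0.0038) and 1.38 (adjusted p = 3.82e-04), with an SE of 0.21 and an r with Kcng1 of 0.933. Atp9a, a membrane phospholipid transporter, rose by 0.68 ± 0.12 in O+C (adjusted p = 0.00245) and 0.75 ± 0.12 in O&C (adjusted p = 6.03e-04), with r = 0.893. Dpm1, a mannose-transfer enzyme, rose by 0.47 in O&C (adjusted p = 0.0195). Mocs3 (r = 0.722) and Adnp (r = -0.163) passed in no comparison with Control, and Sall4 did not pass the count filter. In O+C and O&C, 5.74% and 9.33% of all tested genes rose, and the 21 mature neuron markers had median log2 fold changes of 0.78 and 0.90. Left-out libraries and the neuron marker scaling were not examined for these neighbours.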

How the data were processed

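The authors' deposited table holds estimated counts per Ensembl gene for 15 libraries (3 biological replicates per group, per the labels), with 86.0% to 87.9% of values whole numbers (within 1e-09). The submitters' processing notes name STAR 2.7.10b, Salmon 1.10.1, R 4.4.2 and the GRCm39 build; the annotation and the strand setting are not given in the sources used here. The kit was a stranded messenger RNA kit, per the labels' protocols. Symbols came from RefSeq and gene name tables: 52029 of 57010 identifiers matched, and the rest held 0.313% to 0.551% of counts.

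Estimated counts were rounded. edgeR 4.0.16 in R 4.3.3 kept genes by filterByExpr (minimum count 10), scaled by TMM and fitted 1 robust quasi-likelihood model with a mean per group, with a biological coefficient of variation of 0.183. P-values were adjusted by Benjamini-Hochberg over 19229 genes (threshold 0.05, two-sided). An SE is the log2 fold change over the square root of F. Log2 CPM used a prior count of 2. The script was tested on simulated data. DESeq2 1.42.0, other scalings, no filter, a replicate block and left-out libraries were alternatives.

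Kcng1 and the gene lists were chosen with earlier results of these data known. Named were Kcng1, the Kv2 and silent subunit genes, up to 4 called genes per direction from each other pathway list (not all are given in the text), the genes with the 10 highest and 3 lowest r, and the 3 Olfr genes with the highest r. The neighbours of Kcng1 were taken by position, outside that rule. Some genes that the rule names are not reported here. Kirrel2, Sema7a and the genes given by deviation r were chosen after their values were seen.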

Additional observations from a re-analysis of the deposited data

Results flagged for a closer look

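Nr4a1, an activity-linked gene set beside Kcng1, differed in its response to delivery between the odorant pairs. The effect of separate papers in the octanal pair minus that in the acetophenone pair was -1.5 on the log2 scale (SE 0.21, edgeR adjusted p = 0.0115), a test in which 0.0104% of tested genes were called. Nr4a1 was at 37.6 ± 3.82 and 80.3 ± 8.99 CPM with acetophenone and decanal on a shared and on separate papers, and at 244 ± 43.1 and 184 ± 22.8 CPM with octanal and cis-3-hexenol (SD, n = 3 each). Kcng1 under the same contrast was at -0.52 ± 0.31.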

How the results depend on the processing

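The 6 log2 differences of Kcng1 (each odour group against Control, and the deliveries within a pair) kept their sign under every scaling, filter, tool, block and left-out library tried, with ranges on leaving out 1 library of 0.98 to 1.34, 1.65 to 2.01, 2.43 to 2.84, 2.63 to 2.99, 0.55 to 0.76 and 0.01 to 0.43. Scaling on mature neuron markers moved those against Control to 0.85, 1.29, 1.96 and 1.97, and those between deliveries to 0.44 and 0.01. The last difference, O&C minus O+C, was 0.15 ± 0.21 with all libraries, so its kept sign says little. Called Kv2 and silent subunit genes numbered 0 in O+C with library totals only or the replicate block, and 0 to 1 there with 1 library left out. Leaving out the libraries low in Obp2a was chosen after seeing the data, as were the activity sum without Lrrc3b (r = 0.673) and the alternatives for single genes. Kcnb2 in A&D reversed to -0.02 with library totals only, -0.05 without the libraries low in Obp2a, and ranged from -0.08 to 0.22 with 1 library left out (below 0 without Control 2, A&D 1 or A&D 2). The cause was not tested.

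Over all genes, 62, 197, 1555 and 2834 were called in the odour groups in order. DESeq2 called 232 and 430 in A+D and A&D, no count filter 885 and 610, and only the 2 groups compared 368, 2618 and 4664 in the last 3. With 1 library left out the counts ran from 43 to 527 (527 without A+D 1), 112 to 201, 542 to 1206 (542 without O+C 1) and 1274 to 2284 (1274 without O&C 3). The share of calls that were higher was 71% and 63.3% in O+C and O&C, 54.1% and 42% with library totals only, 54.6% and 50.9% with upper quartile scaling, and 1.01% and 1.16% with neuron marker scaling. Deviations of same-numbered libraries correlated from -0.331 to 0.144. Differently numbered libraries were not compared, so whether replicate numbers pair the libraries was not tested. With the replicate number as a block Kcng1 was at 1.22, 1.88, 2.7, 2.87, 0.67 and 0.17. Of named genes' calls, 2 of 3, 9 of 14, 20 of 31 and 24 of 39 held without any 1 library. Without the libraries low in Obp2a, which leaves fewer mice, 0, 10, 1 and 13 of them missed the threshold, and with the replicate block 0, 5, 4 and 3. Kcng3, Kcng4, Kcnv1 and Kcnv2 were too shallow to show a difference.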
